A study of Mus musculus with 5 samples.

Results

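The heat shock chaperones examined here were 10 genes, Hspa1a, Hspa1b, Hspa8, Hspa5, Hsp90aa1, Hsp90ab1, Dnajb1, Hsph1, Hspe1 and Hspd1, chosen by symbol from the 31053 genes listed in the files, and all 10 were present and had unique molecular identifiers (UMIs, 1 per captured transcript) in every library. The study followed the bone marrow (BM) of mice through loss and regrowth of blood cells after cyclophosphamide (CTX), a DNA-alkylating cytotoxic drug. Whole BM of BALB/c mice of 4 to 8 weeks of age was profiled by droplet scRNA-seq in untreated (naive) mice and after an intraperitoneal dose of 150 mg/kg, at day 2 (called D2 CTX) and at day 7 (called D7 CTX), and CD11b+Ly6Chi monocytes were sorted from naive and from CTX-treated mice, whose day the labels do not give (day 7 in the study's text). No genetic modification was named. Equal cell numbers from 3 mice were mixed before each whole BM library was made, red cells had been lysed, dead cells had been removed, and each of the 5 groups was 1 library. The comparison of sorted with unsorted cells therefore set against each other libraries that also differed in staining, sorting time and mice, and these cannot be told apart. No spread between mice or between libraries could be measured, so no p-value is given, and all intervals are 95% intervals that cover counting error only.

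Chaperones bind unfolded or partly folded proteins and help them to fold, to cross membranes or to be degraded. The HSP70 proteins (Hspa genes) bind short exposed stretches in a cycle driven by ATP, J-domain proteins such as DNAJB1 start that cycle, and HSP110 (HSPH1) exchanges the nucleotide that ends it. HSP90 proteins act later, on clients that include kinases and hormone receptors, while HSPD1 and HSPE1 form the folding chamber of the mitochondrion and HSPA5 (BiP) serves the endoplasmic reticulum (ER). Hspa1a and Hspa1b are the classic inducible members, switched on by heat shock factor 1 within minutes to hours of heat or handling stress, whereas Hspa8 and Hsp90ab1 are made constitutively.

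The control regions of the members that carry the results below are shown first, because the paired genes Hspa1a and Hspa1b were counted separately yet share almost the whole of their promoter. RefSeq promoter windows of 300 bases (250 before to 50 after the gene start, GRCm38.p6) matched 7 of the 10 genes, with none for Hspa8, Hsp90aa1 and Hsp90ab1. The windows lie at chr17:34972107-34972406 on the minus strand for Hspa1a, chr17:34959189-34959488 on the minus strand for Hspa1b, chr5:149636287-149636586 on the minus strand for Hsph1, chr1:55087898-55088197 on the plus strand for Hspe1 and chr2:34771840-34772139 on the plus strand for Hspa5. Capitals mark 2 kinds of motif that were searched on both strands. A heat shock unit pair is GAA and TTC, in either order, separated by 2 bases, and a triplet adds a further alternate unit after 2 more bases. The ER stress element is CCAAT, then 9 bases, then CCACG, so it contains a CCAAT box.
Hspa1a: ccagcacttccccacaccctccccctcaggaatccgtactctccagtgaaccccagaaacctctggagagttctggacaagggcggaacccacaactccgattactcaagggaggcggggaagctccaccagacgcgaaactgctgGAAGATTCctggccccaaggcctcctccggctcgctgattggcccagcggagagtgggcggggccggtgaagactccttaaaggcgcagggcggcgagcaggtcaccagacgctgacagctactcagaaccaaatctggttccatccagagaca
Hspa1b: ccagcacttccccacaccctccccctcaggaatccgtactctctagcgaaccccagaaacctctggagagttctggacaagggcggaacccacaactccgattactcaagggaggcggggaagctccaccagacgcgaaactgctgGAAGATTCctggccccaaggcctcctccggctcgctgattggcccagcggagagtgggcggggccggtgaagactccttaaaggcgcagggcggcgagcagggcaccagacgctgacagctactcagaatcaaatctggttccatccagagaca
Hsph1: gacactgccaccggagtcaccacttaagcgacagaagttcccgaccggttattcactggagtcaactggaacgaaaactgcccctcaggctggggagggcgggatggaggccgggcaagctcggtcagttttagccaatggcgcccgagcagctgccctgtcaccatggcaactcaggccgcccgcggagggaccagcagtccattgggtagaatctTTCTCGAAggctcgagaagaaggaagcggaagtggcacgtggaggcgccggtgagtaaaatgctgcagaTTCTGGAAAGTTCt
Hspe1: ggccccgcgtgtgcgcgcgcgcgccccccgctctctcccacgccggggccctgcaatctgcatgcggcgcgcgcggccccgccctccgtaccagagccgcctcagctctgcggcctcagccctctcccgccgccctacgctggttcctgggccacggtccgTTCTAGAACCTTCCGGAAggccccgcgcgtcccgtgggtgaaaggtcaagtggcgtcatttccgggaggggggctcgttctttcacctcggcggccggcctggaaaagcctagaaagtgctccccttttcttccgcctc
Hspa5: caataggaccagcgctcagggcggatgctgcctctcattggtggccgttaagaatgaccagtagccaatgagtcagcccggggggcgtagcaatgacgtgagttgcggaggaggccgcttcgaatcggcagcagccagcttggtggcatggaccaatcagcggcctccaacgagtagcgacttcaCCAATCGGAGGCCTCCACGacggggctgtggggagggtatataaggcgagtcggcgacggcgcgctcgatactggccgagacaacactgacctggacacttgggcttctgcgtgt

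Hspa1a and Hspa1b differed at 4 of the 300 bases (98.7% identical), and each held 1 unit pair, centred 100 bases before the start. The Hsph1 window held 3 pairs, of which the last 2 formed 1 triplet centred 42 bases after the start, and the Hspe1 window held 3 overlapping pairs that formed 2 triplets. Hspd1 starts next to Hspe1 in the opposite direction, and its window nearest to Hspe1 read the same triplets from the other strand. The Hspa5 window held 1 ER stress element, centred 56 bases before the start, and neither Dnajb1 window held a match. Of all 32851 mouse promoter windows in the table, 15.1% held a unit pair, 0.603% a triplet and 0.119% the ER stress element, so a pair alone was common and the other motifs were rare.

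In GRCm38 the genes lie on 7 chromosomes. Hspa1a (chr17:34969190-34972156) and Hspa1b (chr17:34956436-34959238) are neighbours within the same gene cluster, Hsp90ab1 lies elsewhere on that chromosome (chr17:45567775-45573271), and Hspe1 (chr1:55088132-55091307) and Hspd1 (chr1:55077835-55088243) overlap head to head on opposite strands. The others are Hspa8 (chr9:40800984-40810087), Hspa5 (chr2:34771970-34777547), Hsp90aa1 (chr12:110690605-110702728), Dnajb1 (chr8:83608193-83612653) and Hsph1 (chr5:149614287-149636376). The reads came from the 3′ end of transcripts. The last 500 bases of each member's protein-coding transcripts were therefore compared with all annotated transcripts of other genes. Every stretch of 50 bases was used, starting at each base in turn. None of these stretches was shared for Hspa1a, Hspa1b, Hspa5, Dnajb1 and Hsph1. For Hspa8, 68.6% of stretches also occurred in 11 other gene models, for Hspe1 53.2% in 6, for Hspd1 29.8% in 5, for Hsp90aa1 24.7% in 2 and for Hsp90ab1 2.25% in 1. Reads from such stretches may have been left uncounted for those 5 genes, and levels are compared below between cells and libraries, not between genes.

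The libraries held 2223 to 8605 barcodes with a total of 22694817 to 68459527 UMIs, and 1891 to 8290 cells passed the filters of 200 detected genes or more and a mitochondrial share under 20%. Between 2 and 16 barcodes were shared by any 2 libraries. Cells were assigned to classes by gates on summed marker genes. The monocyte gate (9 markers, including Ly6c2, Ccr2 and Csf1r) held 516 cells of naive BM, 197 and 724 of D2 CTX and D7 CTX BM, 1804 (95.4%) of naive sorted and 2363 (92.2%) of CTX sorted cells. All 9 monocyte markers were detected in every one of these gates, at a sum of 6466 to 7635 UMIs per 1000000 UMIs (CPM). Although the whole BM samples are labelled as mononuclear cells, cells rich in neutrophil transcripts made up 24.5% (with specific granule genes) and 18.7% (without) of naive BM. Median depth in the monocyte gate was 6226, 7222 and 7134 UMIs per cell in naive, D2 CTX and D7 CTX BM, against 10286 and 9653 in naive and CTX sorted cells. Azurophil granule progenitors made up 1.85% and 3.9% of the sorted libraries and lay outside the monocyte gate.

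The inducible HSP70 gene Hspa1a was scarce in whole BM and plentiful in naive sorted monocytes. Within the monocyte gate, Hspa1a stood at 12 CPM in naive BM (46 UMIs), 15.1 CPM in D2 CTX BM (36 UMIs), 7.25 CPM in D7 CTX BM (42 UMIs), 59.9 CPM in naive sorted cells (1264 UMIs) and 16.1 CPM in CTX sorted cells (421 UMIs). Over all gated cells, only the naive sorted library stood well apart from the other 4. The log2 ratio of naive sorted cells to gated cells of naive BM was 2.32 (1.90 to 2.78), at 4.02 (2.79 to 5.65) in cycling and 1.83 (1.38 to 2.32) in non-cycling cells. The cycling value rested on 5 UMIs in 144 cells of naive BM. The ratio of CTX sorted cells to gated D7 CTX BM was smaller, at 1.15 (0.69 to 1.65), and CTX sorted over naive sorted cells gave -1.89 (-2.06 to -1.73). D2 CTX over naive BM gave 0.33 (-0.34 to 0.99), and D7 CTX over naive BM -0.72 (-1.36 to -0.09). Among non-cycling cells the D2 CTX ratio was 1.22 (0.52 to 1.90), at 44.4 against 19.1 CPM on 35 and 41 UMIs. Among cycling cells it was -2.24 (-7.80 to 0.92), on 1 and 5 UMIs. Non-cycling CTX sorted cells stood at 22.4 CPM and non-cycling naive sorted cells at 68 CPM.

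Its near twin Hspa1b did not follow in the same proportion. The level of Hspa1b in the gate was 12.5 CPM in naive BM, 25.6 CPM in D2 CTX BM, 6.56 CPM in D7 CTX BM, 20 CPM in naive sorted and 4.44 CPM in CTX sorted cells, so D2 CTX BM and naive sorted cells were the high samples and CTX sorted cells the lowest. The log2 ratio of naive sorted to naive BM was 0.68 (0.25 to 1.14), at 2.14 (1.06 to 3.48) in cycling and 0.15 (-0.32 to 0.67) in non-cycling cells. The cycling value rested on 7 UMIs in naive BM. The ratio was -0.34 in cells that had no UMI of the proliferation markers, where Hspa1a kept a ratio of 1.60. CTX sorted over D7 CTX BM gave -0.56 (-1.10 to 0.01), with 0 inside the interval, and CTX sorted over naive sorted gave -2.17 (-2.48 to -1.87). The ratio to naive BM was 1.03 (0.46 to 1.61) for D2 CTX and -0.93 (-1.58 to -0.29) for D7 CTX. The D2 CTX ratio was 1.84 (1.23 to 2.47) in non-cycling cells, on 54 and 41 UMIs. In cycling cells it was 0.08 (-1.66 to 1.82), on 7 and 7 UMIs.

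Of the UMIs that the pair shared, Hspa1a made up 48.9% in gated cells of naive BM (exact binomial interval 38.5 to 59.5, 94 UMIs), 37.1% in D2 CTX BM and 52.5% in D7 CTX BM. In naive sorted cells it made up 75% (72.8 to 77, 1686 UMIs) and in CTX sorted cells 78.4% (74.7 to 81.8, 537 UMIs). Both sorted libraries thus had a larger share of Hspa1a in the pair than any of the 3 whole BM libraries, with intervals that did not overlap. These intervals treat UMIs as independent, and 1 cell of naive BM held 22 of its 48 UMIs of Hspa1b. In that gate 19 cells had Hspa1a and 19 had Hspa1b, so the gap to naive BM is less certain than the intervals show. The windows printed above are nearly identical between the pair, and the 3′ ends share no stretch of 50 bases. Gm20481 is annotated on the strand opposite Hspa1a, and it was not tested whether it took or gave reads.

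**Figure D1:**
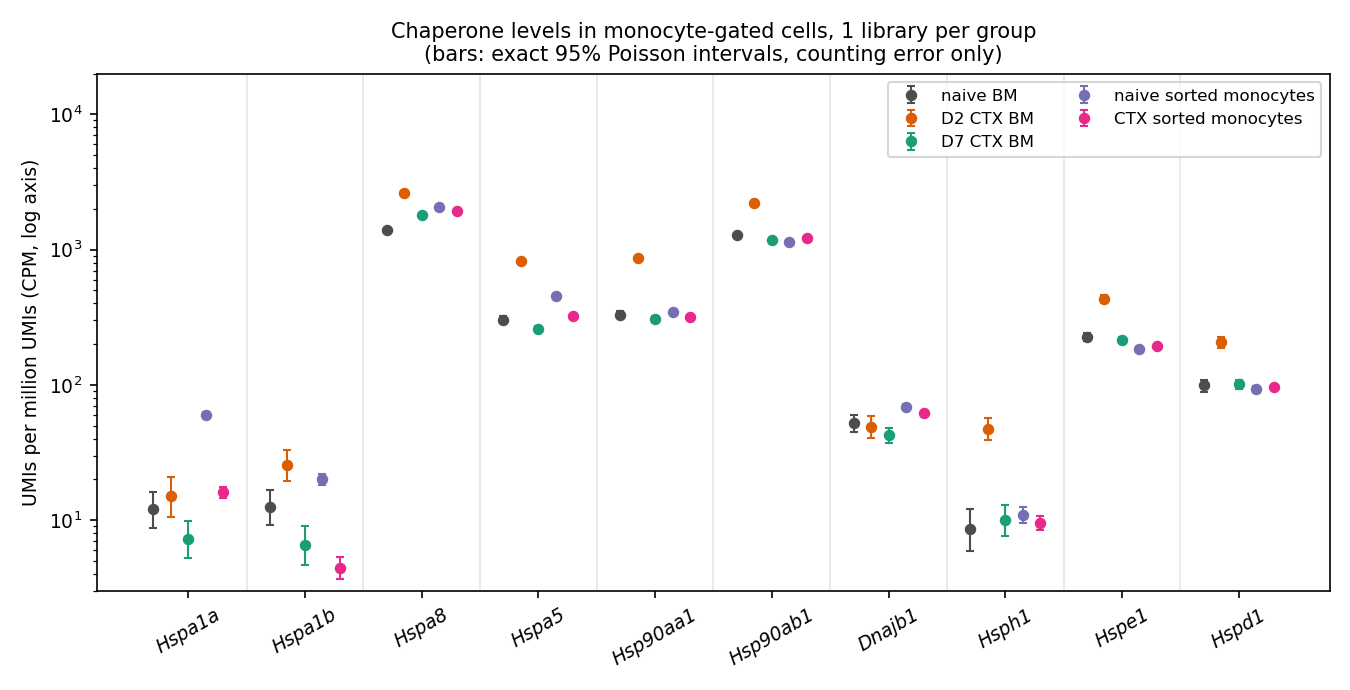
Level of each chaperone in monocyte-gated cells (CPM, log axis) in the 5 libraries, with exact Poisson intervals as bars. Hspa1a is highest in naive sorted cells at 59.9 CPM, and 8 of the 10 genes, all but Hspa1a and Dnajb1, are highest in D2 CTX BM.

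Hspa1a sat in few cells. In naive BM, 19 of 516 gated cells had a UMI of Hspa1a, and the 6 richest cells held 69.6% of the UMIs, with up to 9 in a cell. For Hspa1b the 6 richest cells held 72.9%, with up to 22 in a cell. The counting intervals above treat UMIs as independent, so they are narrower than the spread between cells allows. Among naive sorted cells 435 of 1804 had a UMI of Hspa1a, up to 44 in a cell, and the top 181 cells held 78% of them. Cells with both genes numbered 4, 4 and 5 in gated naive, D2 CTX and D7 CTX BM, 96 in naive sorted and 16 in CTX sorted cells.

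Because sorted cells held more UMIs per cell, each cell was thinned to 2000 UMIs and shallower cells were left out (28 in naive BM, 19 and 18 in D2 CTX and D7 CTX BM, 49 in naive sorted and 57 in CTX sorted cells). The share of gated cells with a UMI of Hspa1a was then 2.25% (1.13 to 4) in naive BM, 5.62% (2.73 to 10.1) for D2 CTX, 1.84% (0.984 to 3.13) for D7 CTX, 8.66% (7.39 to 10.1) in naive sorted and 3.82% (3.07 to 4.68) in CTX sorted cells. Without thinning these shares were 3.68%, 7.61%, 4.7%, 24.1% and 11.1%. At equal depth the interval of naive sorted cells lay above those of naive BM, D7 CTX BM and CTX sorted cells, and overlapped that of D2 CTX BM. Free RNA was gauged in B lineage cells, where the thinned share of Hspa1a was 0.188% in naive BM (median depth 2765 UMIs before thinning) and 0.0771% in D2 CTX BM (2478 UMIs), and in cells with specific granule genes, where it was 0 of 1683 cells in naive BM, which allows up to 0.178%. In D7 CTX BM, 0 of 161 B lineage cells (up to 1.86%) and 0.108% of specific granule cells had a UMI. The monocyte share lay above these levels in naive and D2 CTX BM, whereas in D7 CTX BM it lay above that of specific granule cells and within the limit set by the few B lineage cells. The sorted libraries held too few other cells for such a level. For Hspa1b the thinned share was 2.66%, 4.49%, 1.56%, 3.48% and 0.954% in the same order of libraries, and in B lineage cells it was 0.502% in naive, 0.308% at day 2 and 1.24% (0.151 to 4.42) at day 7, and in specific granule cells 0.172% (0.0745 to 0.339) at day 7. The share in D7 CTX monocytes, with an interval of 0.78 to 2.77, thus lay above that of specific granule cells and overlapped that of the 161 B lineage cells.

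**Figure D2:**
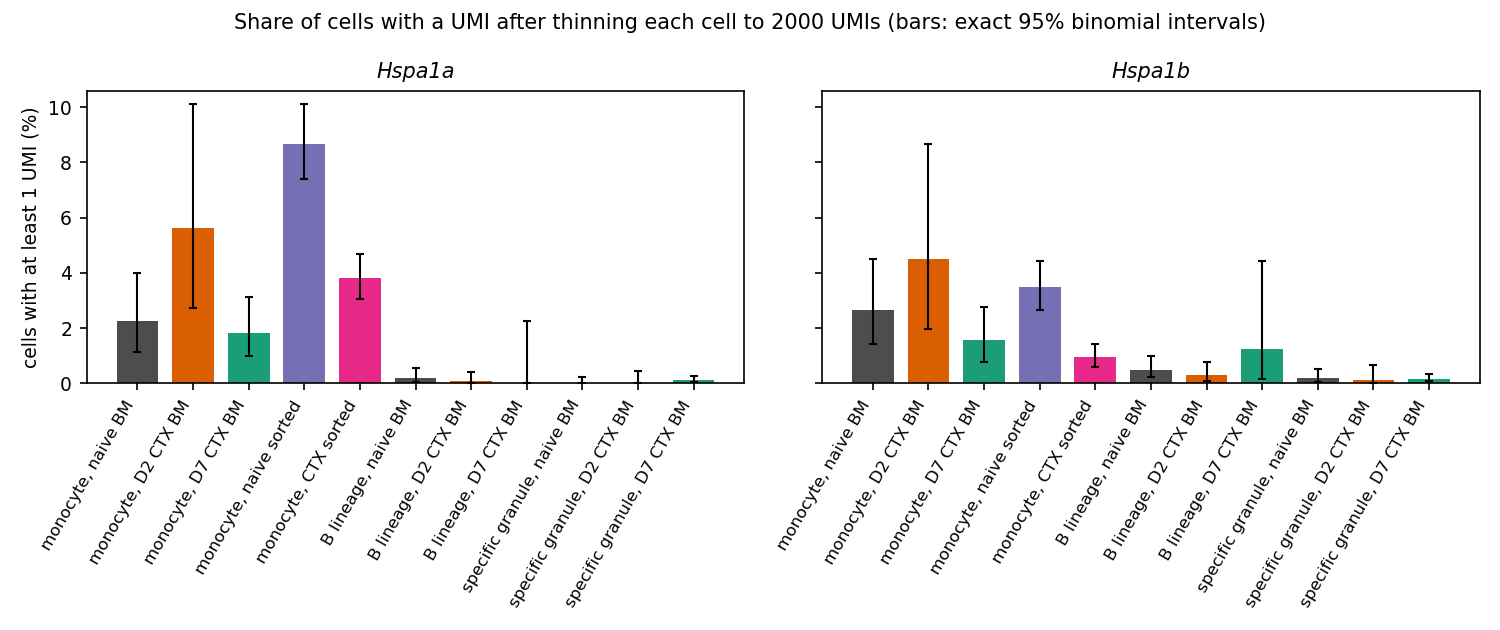
Share of cells with at least 1 UMI of Hspa1a (left) or Hspa1b (right) after thinning each cell to 2000 UMIs, by gate and library, with exact binomial intervals as bars. Naive sorted monocytes reach 8.66% for Hspa1a, while B lineage and specific granule cells of whole BM stay near 0 for that gene. For Hspa1b, B lineage cells of D7 CTX BM stand at 1.24% (0.151 to 4.42), beside 1.56% in D7 CTX and 0.954% in CTX sorted monocytes.

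Among classes of naive BM, monocyte-gated cells had the most Hspa1a and Hspa1b (12 and 12.5 CPM). Plasma cells followed for Hspa1a at 12 CPM with only 5 UMIs in 33 cells (3.89 to 27.9). B lineage cells had 0.516 CPM of Hspa1a and 2.06 CPM of Hspa1b, and azurophil granule progenitors, macrophages, dendritic, T and NK cells had no UMI of Hspa1a. The intervals of these 5 classes reached 2.29, 86, 4.17, 8.59 and 7.83 CPM. Hspa1b was also at 0 in macrophages, with an interval up to 86 CPM. The 45 macrophages thus could not be placed below monocytes for either gene. In D2 CTX BM plasma cells held 62.1 CPM of Hspa1a (53 UMIs in 43 cells), and its log2 ratio to naive BM was 2.37 (1.06 to 4.06), while no UMI of Hspa1b was seen in plasma cells of either library.

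The genes whose pattern came closest to that of Hspa1a over 26 combinations of library and class with at least 100 cells were Stxbp6 (Pearson r = 0.919 on log2(CPM + 1)), Ms4a8a (0.895), Cd300lg (0.895), Fn1 (0.893) and Spink2 (0.888), among 9754 genes. Fn1 is itself a marker of the monocyte gate, and the combinations share libraries, depth and the gates, so these values describe a pattern of monocyte-gated cells. The value was 0.636 for Hspa1b and 0.575 for Hspa8, and 0.015 to 0.267 for the other 7 members. Across the same combinations the highest values within the set joined Hsp90ab1 with Hspe1 (0.96) and with Hspd1 (0.95), and Hspe1 with Hspd1 (0.95).

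The constitutive HSP70 gene Hspa8 was abundant everywhere. In the monocyte gate Hspa8 stood at 1385 CPM in naive BM, 2602 CPM in D2 CTX BM, 1813 CPM in D7 CTX BM, 2056 CPM in naive sorted and 1932 CPM in CTX sorted cells, so naive BM was lowest and D2 CTX BM highest. Naive sorted cells lay 0.57 (0.53 to 0.61) log2 units above gated cells of naive BM, while CTX sorted cells lay 0.09 (0.06 to 0.12) above gated D7 CTX BM, and this last value was -0.05 in cells without proliferation-marker UMIs. D2 CTX over naive BM gave 0.91 (0.86 to 0.96) and D7 CTX over naive BM 0.39 (0.34 to 0.44).

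Hspa5, which encodes the ER HSP70 and is a classic target of the unfolded protein response, had 302 CPM in the gate in naive BM, 817 CPM in D2 CTX BM, 259 CPM in D7 CTX BM, 457 CPM in naive sorted and 321 CPM in CTX sorted cells. D2 CTX BM stood highest, naive sorted cells second. The log2 ratio was 0.60 (0.51 to 0.69) for naive sorted over naive BM, 0.31 (0.23 to 0.39) for CTX sorted over D7 CTX BM, -0.51 (-0.56 to -0.47) for CTX sorted over naive sorted and 1.43 (1.33 to 1.54) for D2 CTX over naive BM. Its promoter was the only one of the printed windows with an ER stress element.

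The HSP90 genes stood at similar levels in sorted and unsorted monocytes when all gated cells were summed. Hsp90aa1, the inducible cytosolic HSP90, had 330, 860 and 306 CPM in the gate of naive, D2 CTX and D7 CTX BM, and 348 and 316 CPM in naive and CTX sorted cells. Sorted over unsorted gave log2 ratios of 0.07 (-0.01 to 0.16) in naive and 0.05 (-0.03 to 0.12) in CTX cells, with 0 inside both intervals. Among non-cycling cells alone the naive ratio was 0.48 (0.33 to 0.64), and among cycling cells it was -0.11 (-0.22 to -0.00). Hsp90ab1, the constitutive HSP90, had 1282, 2200 and 1183 CPM in the same BM libraries, and 1135 and 1207 CPM in the sorted ones, with sorted over unsorted ratios of -0.18 (-0.22 to -0.13) and 0.03 (-0.01 to 0.07). In both genes D2 CTX BM alone stood apart, at log2 ratios to naive BM of 1.38 (1.28 to 1.48) and 0.78 (0.72 to 0.84).

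The cochaperones behaved unlike each other. Dnajb1, whose product starts the HSP70 cycle, had 52.1, 49 and 42.5 CPM in the gate of naive, D2 CTX and D7 CTX BM and 68.4 and 61.4 CPM in naive and CTX sorted cells, so both sorted libraries lay above all 3 whole BM libraries. The ratios of sorted to unsorted cells were 0.39 (0.18 to 0.61) and 0.53 (0.34 to 0.73), and D2 CTX over naive BM was -0.09 (-0.43 to 0.25). Hsph1, the HSP110 exchange factor, had 8.59 CPM (33 UMIs) in naive BM, 47.4 CPM (113 UMIs) in D2 CTX BM, 10 CPM in D7 CTX BM, 11 CPM in naive sorted and 9.58 CPM in CTX sorted cells. Only D2 CTX BM was high, at a log2 ratio of 2.46 (1.89 to 3.07) to naive BM, and the sorted over unsorted ratios were 0.35 (-0.18 to 0.92) and -0.06 (-0.48 to 0.37).

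Both mitochondrial genes were highest in D2 CTX BM. Hspe1, the lid of the chamber, had 227, 431 and 215 CPM in the gate of naive, D2 CTX and D7 CTX BM, and 183 and 193 CPM in naive and CTX sorted cells. Hspd1, its barrel, had 98.9, 206 and 101 CPM, and 93.3 and 96.6 CPM. Sorted over unsorted ratios were -0.31 (-0.42 to -0.21) and -0.15 (-0.24 to -0.06) for Hspe1, and -0.08 (-0.24 to 0.08) and -0.06 (-0.19 to 0.07) for Hspd1, so Hspe1 was slightly lower in sorted cells and Hspd1 was not distinguishable at this depth. D2 CTX over naive BM was 0.92 (0.79 to 1.06) for Hspe1 and 1.06 (0.86 to 1.26) for Hspd1. The ratio of Hspe1 was 0.93 (0.76 to 1.10) in cycling and 0.60 (0.37 to 0.83) in non-cycling cells. It ran down to 0.39 under the alternatives tried, and 20 of the 197 cells of D2 CTX BM held 61.2% of the UMIs of Hspe1.

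**Figure D3:**
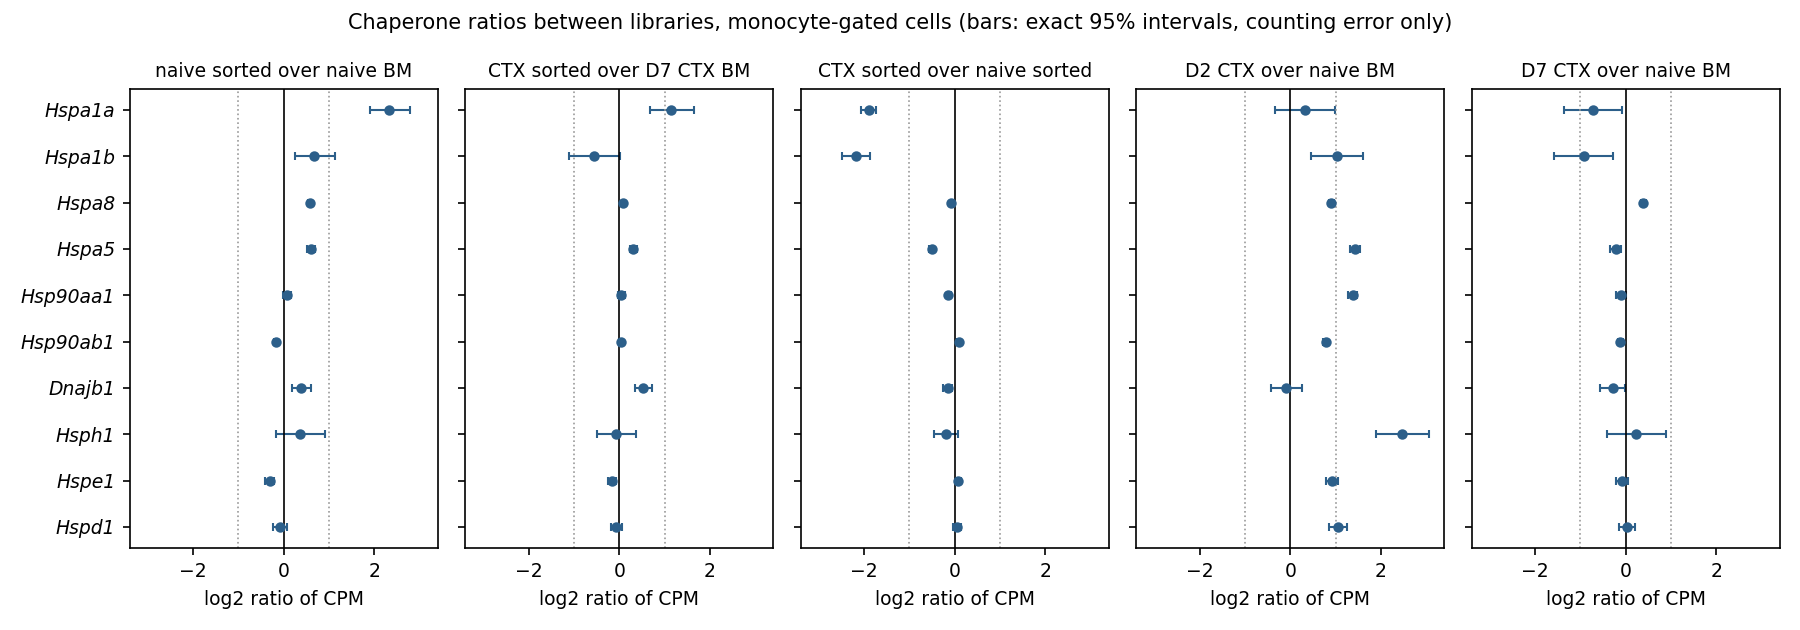
Log2 ratio of CPM between libraries for each chaperone in monocyte-gated cells, 1 panel per comparison, with exact intervals as bars and dotted lines at 1 log2 unit either way. Hspa1a stands at 2.32 in naive sorted over naive BM, Hspa1a and Hspa1b at -1.89 and -2.17 in CTX sorted over naive sorted, and most members lie above 0 in D2 CTX over naive BM.

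Counted over all genes that reached 200 UMIs over both libraries and 20 CPM in 1 of them, with 1 CPM added, the 10 members compared with the background as follows. In naive sorted over naive BM, 9 members passed the filter (not Hsph1) and 1, Hspa1a, lay at least 1 log2 unit higher, where 2.2% of 5819 genes lay that much higher and 1.15% that much lower. The median log2 ratio was 0.35 over the 10 members and -0.08 over all genes. In CTX sorted over D7 CTX BM, 7 members passed (not Hspa1a, Hspa1b and Hsph1) and none lay past that fold, with 0.802% of 5737 genes higher and 0.767% lower, and medians of 0.04 and 0.01. In CTX sorted over naive sorted, 9 passed (not Hsph1) and 2, Hspa1a and Hspa1b, lay at least 1 log2 unit lower, beside 0.702% of 5558 genes lower and 0.018% higher, with medians of -0.14 and 0.03. In D2 CTX over naive BM, 7 passed (not Hspa1a, Hspa1b and Hsph1) and 3, Hspa5, Hsp90aa1 and Hspd1, lay at least 1 log2 unit higher, beside 2.74% of 4304 genes higher and 1.35% lower, with medians of 0.95 and 0.04. The log2 ratio of Hspd1 was under 1 in each part of the gate, at 0.88 (0.64 to 1.12) in cycling and 0.76 (0.38 to 1.14) in non-cycling cells, ran down to 0.53 under the alternatives tried, and rested on few cells, since 20 of the 197 cells of D2 CTX BM held 66.5% of its UMIs. In D7 CTX over naive BM, 7 passed (not the same 3) and none lay past the fold, beside 0.314% of 5415 genes higher and 0.148% lower, with medians of -0.11 and -0.06. The naive BM, D7 CTX BM and sorted libraries each entered more than 1 of these comparisons, so the comparisons are not independent of each other.

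Other measures moved with the libraries. Early response genes, which cells switch on within minutes of handling, summed in the gate to 3631 CPM in naive BM, 3699 for D2 CTX, 5072 for D7 CTX, 15493 in naive sorted and 11743 in CTX sorted cells. All 12 were detected in each library, and 11 of 12 lay at least 1 log2 unit higher in naive sorted over naive BM (median 2.09), 6 of 12 in CTX sorted over D7 CTX BM (median 0.93). The sum of 9 neutrophil markers was 3083, 6838 and 5472 CPM in the gates of naive, D2 CTX and D7 CTX BM and 1701 and 2679 CPM in those of naive and CTX sorted cells, and the sum of erythroid markers was 342 CPM in naive BM and 0.711 CPM in naive sorted cells. Of the 7 T cell markers, Cd3e, Cd3g, Trac and Cd8a were at 0 in the gates of all 5 libraries, while Cd3d was detected in all 5. Trbc2 was detected in the whole BM gates and Cd4 in that of D7 CTX BM. The T cell sum was 3.12, 3.35 and 1.04 CPM in naive, D2 CTX and D7 CTX BM. It was 0.427 and 0.46 CPM in naive and CTX sorted cells. Mitochondrial UMIs in the gate had a median of 4.05%, 5.18%, 4.52%, 4.09% and 4.18%. The part of these measures in the chaperone ratios was not tested.

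The D2 CTX gate was the smallest, with 197 cells, and 79 cells of that library lay within 20% of the gate's cut. Its cells had less Ly6c2 than those of naive BM (685 against 1304 CPM) and more Itgam (378 against 212 CPM). With a stricter gate of 153 cells the median ratio of the 10 members to naive BM was 0.73 rather than 0.98 (both with nothing added), and each of the ratios of Hspa8, Hspa5, Hsp90aa1, Hsp90ab1, Hsph1, Hspe1 and Hspd1 stayed above 0 under all 11 alternatives tried.

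Outside monocytes, the D2 CTX pattern was uneven across members. The median log2 ratio of all genes differed between the 12 gated classes, from -0.75 in erythroid cells (20.9% of genes above 0) to 0.31 in neutrophils (72.4% above 0), and the counts of classes below are not scaled for it. Hspa8 was higher in D2 CTX than in naive BM, with an interval above 0, in 11 of 12 gated classes, all but erythroid cells, and the log2 ratio ran from 0.11 (0.06 to 0.16) in B lineage cells to 2.38 (2.01 to 2.77) in plasma cells. The exceptions depended on scaling, since in B lineage cells the ratio of Hspa8 lay below the median of all genes (0.20), and in erythroid cells the ratio of 0.09 (-0.26 to 0.43) lay above it (-0.75). In non-cycling B lineage cells Hspa8 stood at 0.75 (0.67 to 0.82), where the median of all genes was 0.10. In T cells the level was 710 CPM in naive and 1332 CPM in D2 CTX BM, and in NK cells 1153 and 2362 CPM. Hspa5 had an interval above 0 in 9 classes, of which the neutrophil gate, at 0.18 (0.01 to 0.35), lay below the median of all genes there (0.31). In D2 CTX BM the highest Hspa5 levels were in basophils and plasma cells, with 712 and 2252 CPM in basophils of naive and D2 CTX BM (1.66, interval 1.46 to 1.86) and 550 and 1809 CPM in plasma cells (1.72, interval 1.52 to 1.92). The macrophage class had shallow cells, with a median of 663 UMIs in naive BM, and was counted but is not described further.

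Hsph1 had an interval above 0 in 8 classes and below 0 in none. The largest of these was in azurophil granule progenitors, with 16.8 CPM in naive (123 cells, 68 of them cycling) and 101 CPM in D2 CTX BM (46 cells, 41 of them cycling) and a log2 ratio of 2.59 (2.00 to 3.23). The naive level rested on 27 UMIs. Median depth in this class was 12656 UMIs per cell in naive and 32449 in D2 CTX BM, and its ratio was not split by cycling. T cells had 25.6 and 94.7 CPM (1.89, interval 0.98 to 2.94) and NK cells 42.4 and 106 CPM (1.31, interval 0.47 to 2.19). B lineage cells stood at 0.67 (0.40 to 0.94), and at 1.08 (0.69 to 1.48) without cycling cells. The T and NK classes had low counts, with 11 and 20 UMIs in naive BM.

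The remaining cytosolic and mitochondrial genes went in different directions by class. Hsp90aa1 had an interval above 0 in 7 classes and below 0 in 1, B lineage cells, with 810 CPM in naive against 484 CPM in D2 CTX BM (-0.74, interval -0.81 to -0.67). Hspe1 and Hspd1 had intervals above 0 in 4 classes each and below 0 in 3 each, and in B lineage cells they stood at -0.69 (-0.78 to -0.59) and -0.84 (-0.97 to -0.71). Hsp90ab1 stood there at -0.58 (-0.62 to -0.53). Cycling B lineage cells numbered 546 of 1949 in naive BM and 14 of 1620 in D2 CTX BM. Among non-cycling B lineage cells the ratio was 0.41 (0.31 to 0.51) for Hsp90aa1, 0.08 (0.02 to 0.14) for Hsp90ab1, 0.07 (-0.07 to 0.20) for Hspe1 and 0.30 (0.11 to 0.50) for Hspd1, none of them below 0. With 14 cycling cells in D2 CTX BM the cycling part was not compared. Dnajb1 differed in 2 classes, with 167 against 63.9 CPM in basophils (1.39, interval 0.69 to 2.12) and 27.9 against 41 CPM in neutrophils (-0.55, interval -0.89 to -0.22).

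For day 7, 6 classes had at least 30 cells in both libraries. Hspa8 had an interval above 0 in all 6, from 0.15 (0.06 to 0.24) in azurophil granule progenitors to 0.48 (0.41 to 0.54) in B lineage cells. Hspa5 had an interval below 0 in 4 classes, the monocyte, azurophil progenitor, specific granule and neutrophil gates, the lowest at -0.49 (-0.61 to -0.37) in azurophil progenitors. In the same order of gates the median of all genes was -0.06, -0.08, -0.15 and -0.10. Only 25.5% of genes lay above 0 in specific granule cells, and the day 7 ratios are not scaled for these shifts. Specific granule cells also had less Hspe1, at 17.1 against 31.6 CPM (-0.89, interval -1.07 to -0.71), less Hsp90aa1 (-0.39, interval -0.47 to -0.30) and less Hsph1 (-1.84, interval -2.83 to -0.86, on 19 and 20 UMIs). B lineage cells had higher Hsp90aa1, Hsp90ab1, Hspe1 and Hspd1 than in naive BM, with 1358 against 810 CPM for Hsp90aa1 (0.75, interval 0.68 to 0.81). Of those B lineage cells 93 of 186 were cycling. The ratio of Hsp90aa1 was 1.05 (0.82 to 1.27) in non-cycling and 0.44 (0.37 to 0.51) in cycling B lineage cells.

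Over all kept cells of D7 CTX BM every member lay below its level in naive BM, from -0.11 (-0.60 to 0.38) for Hspa1a to -1.97 (-2.16 to -1.79) for Hsph1. Most genes did so, since the median of all genes was -0.58 and only 20% of 5608 genes lay above 0. Hspa1a and Hspa8 lay above that median, and Dnajb1 (-0.59) lay close to it. Cells with specific granule genes, the class lowest in Hspa8 apart from plasma cells, made up 56.2% of D7 CTX BM and 24.5% of naive BM. Within that class the ratio of Hspa8 was 0.27 (0.21 to 0.33), against -0.43 (-0.45 to -0.40) over all kept cells.

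**Figure D4:**
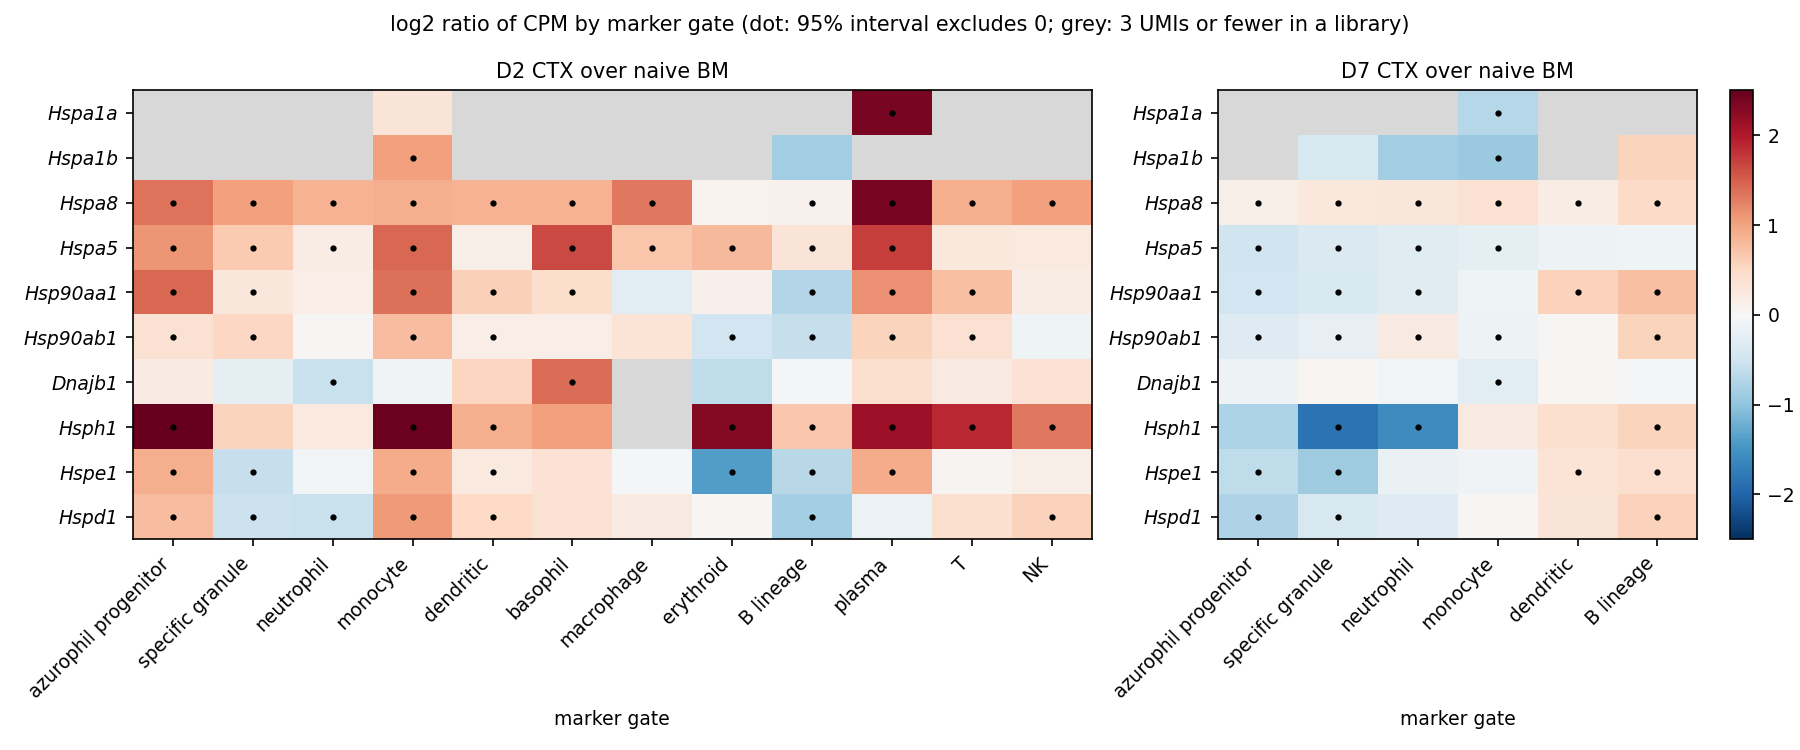
Log2 ratio of CPM for each chaperone (rows) in each marker gate (columns), D2 CTX over naive BM on the left and D7 CTX over naive BM on the right, with a dot where the interval excludes 0 and grey where a library had 3 UMIs or fewer. Hspa8 and Hsph1 are higher across most D2 CTX classes, B lineage cells are lower for Hsp90aa1, Hsp90ab1, Hspe1 and Hspd1 at day 2 (not so among non-cycling cells alone) and higher at day 7.

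In naive BM, cells outside every gate were highest in Hsp90aa1 (1653 CPM), Hsp90ab1 (2613 CPM), Hspe1 (1053 CPM) and Hspd1 (613 CPM), and 210 of these 411 cells were cycling. Azurophil granule progenitors followed for Hsp90ab1 (2573 CPM), within counting error of the ungated cells, and for Hspe1 (571 CPM) and Hspd1 (352 CPM). Neutrophil and specific granule cells were both among the last 3 of the 13 classes for Hsp90aa1, Hsp90ab1, Hsph1, Hspe1 and Hspd1, for example at 301 and 232 CPM of Hsp90ab1. Dnajb1 had another order, with erythroid cells highest at 139 CPM (128 to 152), above ungated cells at 85 CPM (78.1 to 92.4), and the next 8 classes between 63.9 and 34.7 CPM had intervals that overlapped their neighbours.

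Cell division separated members in the monocyte gate. Cycling cells, defined by 8 proliferation markers, made up 27.9%, 36%, 27.1%, 27.1% and 34.4% of the gate in naive BM, D2 CTX BM, D7 CTX BM, naive sorted and CTX sorted cells. Hsp90aa1 was higher in cycling than in non-cycling cells of all 5 libraries, with log2 ratios of 1.48 (1.30 to 1.65), 1.06 (0.91 to 1.23), 1.31 (1.17 to 1.45), 0.88 (0.81 to 0.95) and 1.03 (0.96 to 1.09). In naive BM this was 515 against 185 CPM. Hspd1 (0.47 to 1.07) and Hsp90ab1 (0.15 to 0.59) were also higher in cycling cells of all 5, each with an interval above 0.

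Hspa1a and Hspa1b went the other way. The level of Hspa1a was lower in cycling cells of all 5 libraries, with 2.96 against 19.1 CPM in naive BM, 0.626 against 44.4 CPM in D2 CTX BM, 4.38 against 9.12 CPM in D7 CTX BM, 48.1 against 68 CPM in naive sorted and 9.23 against 22.4 CPM in CTX sorted cells. The interval lay below 0 in 4 libraries and reached 0 in D7 CTX BM (-1.06, interval -2.25 to 0.00), and the low count of 0.626 CPM in D2 CTX BM was 1 UMI. The ratio of Hspa1b was -2.20 (-3.60 to -1.03) in naive BM and -3.96 (-5.35 to -2.82) in D2 CTX BM. It was -0.87 in D7 CTX BM, -0.22 in naive sorted and -0.48 in CTX sorted cells, each with 0 inside the interval. Cells of 1 library are not replicates, so these ratios describe each library.

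**Figure D5:**
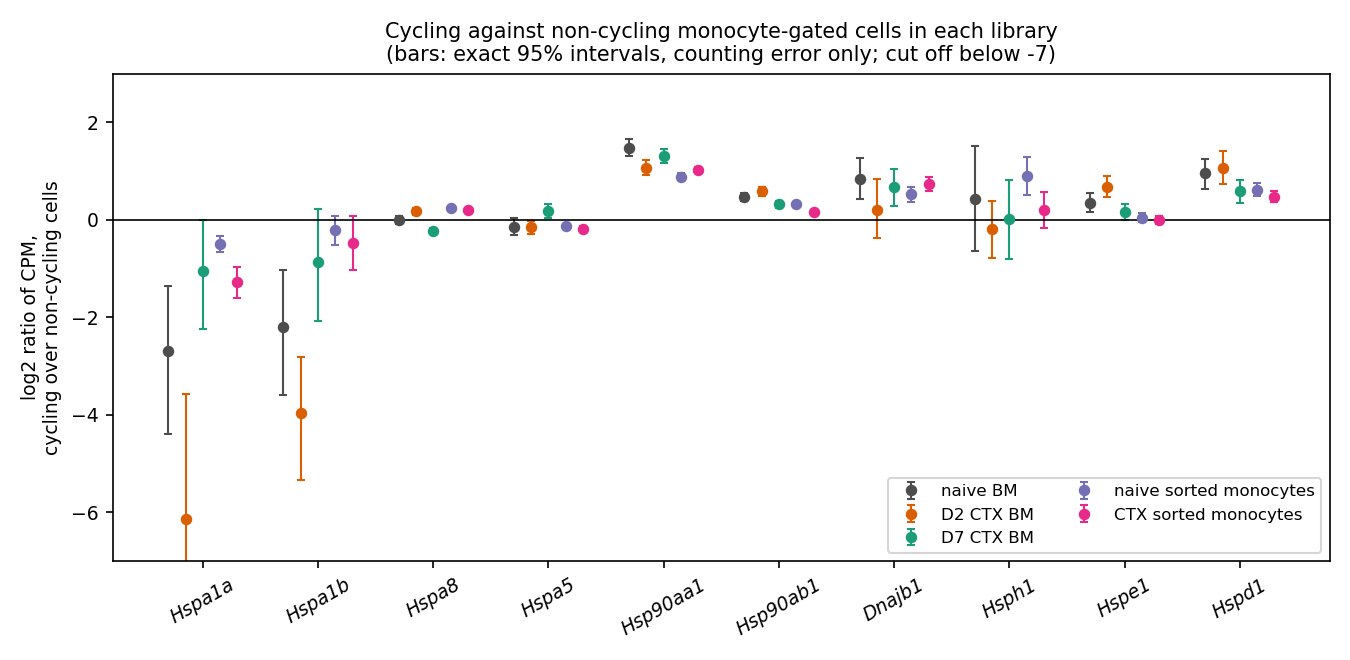
Log2 ratio of CPM in cycling over non-cycling monocyte-gated cells for each chaperone and library, with exact intervals as bars. Hsp90aa1 lies between 0.88 and 1.48 in all 5 libraries, and Hspa1a and Hspa1b lie below 0 in all 5.

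The wider machinery of protein folding was described with a list of 55 further genes present in the files, such as other HSP40 and HSP70 proteins, chaperonin subunits, ER folding enzymes and stress factors. In naive sorted over naive BM 46 passed the filter, 2 lay at least 1 log2 unit higher and 0 lower. Of all genes that passed, 2.2% lay that much higher and 1.15% lower. The list had a median of 0.07 beside -0.08 over all genes. The highest were Ddit3 (1.52, with 43.2 against 15.1 CPM), a transcription factor of the ER stress response, Dnajb9 (1.44), an ER J-domain protein, and Atf4 (0.89), a factor of the integrated stress response, and the lowest were Clpp (-0.45), Hsf2 (-0.45) and Canx (-0.40). In CTX sorted over D7 CTX BM, 47 passed and 0 lay past the fold, beside 0.802% of all genes higher and 0.767% lower. The list had a median of 0.21 beside 0.01 over all genes. The highest there were Atf4 (0.81), Dnajb9 (0.81) and Ahsa1 (0.77), a cochaperone of HSP90, and the lowest Hsbp1 (-0.28), Chordc1 (-0.22) and Hspa4l (-0.19).

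In CTX sorted over naive sorted, 46 of the list passed and 1, Ddit3, lay at least 1 log2 unit lower (-1.05, interval -1.21 to -0.90, at 20.9 against 43.2 CPM). Of all genes, 0.702% lay that much lower and 0.018% higher. Dnajb9 (-0.81) and Hspa13 (-0.49) followed in the list, while Hspa4l (0.20), Stub1 (0.18) and Trap1 (0.18) were its highest. In D2 CTX over naive BM, 39 passed, 4 lay at least 1 log2 unit higher and 0 lower, beside 2.74% and 1.35% of all genes. The list had a median of 0.36 beside 0.04 over all genes. All 3 that stood highest serve the ER, Calr (2.00, interval 1.88 to 2.12, at 849 against 212 CPM), which binds calcium and folds glycoproteins, the disulphide isomerase Pdia4 (1.38) and the ER HSP90 gene Hsp90b1 (1.34, at 1125 against 445 CPM). Stub1, Dnajc7 and Hspa14 were lowest, each at -0.25. In D7 CTX over naive BM, 44 passed and 0 lay past the fold, beside 0.314% of all genes higher and 0.148% lower. Of the list, Cct4 (0.25), Hspa4l (0.24) and Trap1 (0.18) were highest and Creld2 (-0.45), Hsf2 (-0.33) and Pdia3 (-0.30) lowest.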

How the data were processed

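Droplet scRNA-seq (10x 3′ V3) was available for 5 libraries, 1 per group. The deposited values were counts of UMIs per gene and barcode, which the authors made with Cell Ranger 3.1 on mm10, without normalization. The submitters' processing notes also name Seurat 5.0. The study states more cells than the barcodes held in these files. A barcode was kept from 200 detected genes up and with a mitochondrial share under 20%, the limits that the study's methods give, and doublets were not removed.

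Cells were gated on marker UMIs per 10000 UMIs (the monocyte cut was 30), with cut points set after marker sums and first chaperone values had been seen. Cells in the gates of several lineages were left out. UMIs were summed per gate and divided by all UMIs (CPM), with exact Poisson intervals. Log2 ratios had nothing added and exact conditional intervals, and counts of genes past 1 log2 unit had 1 CPM added. Shares had exact Clopper-Pearson intervals, and a count of 0 was read as up to 3 counts. With 1 library per group no test was run. The ratios and intervals were tested on simulated counts with known folds. These counts were Poisson draws, which the intervals assume, so the spread of UMIs between cells was not covered. Python 3.11.15, numpy 2.4.6, scipy 1.17.1, pandas 2.3.3, scanpy 1.11.5 and matplotlib 3.10.9 were used. Positions came from the GENCODE annotation of GRCm38.

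The members, gene lists and comparisons were chosen with earlier results of these data known. Named genes were all 10 members, the 3 highest and 3 lowest of the wider list in each comparison, and the 5 genes closest to Hspa1a. Alternatives changed the cell filter, doublets (Scrublet), scaling, the 20 most abundant genes, the gate, dividing cells, the mean over cells, the added CPM, the filter on low genes, the fold, the thinning depth and granule-rich cells.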

Additional observations from a re-analysis of the deposited data

Results flagged for a closer look

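Among members with intervals away from 0 in both comparisons, 2 differed in the direction of CTX over naive between sorted and unsorted monocyte-gated cells. Hspa8 had a log2 ratio of -0.09 in sorted and 0.39 in whole BM (D7 CTX over naive) cells, and Hsp90ab1 had 0.09 and -0.12. Each group is 1 library and the difference was not tested.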

How the results depend on the processing

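Over 50 ratios (10 members in 5 comparisons) and 590 alternative values, 528 stayed within the counting interval of the reported value and 62 left it. For 40 ratios the sign was the same under all alternatives, and for 10 it changed under at least 1. These were Hspa1b (-0.34 in cells without proliferation-marker UMIs) and Hspd1 in naive sorted over naive BM, Hspa8, Hsp90aa1, Hsp90ab1, Hsph1 and Hspd1 in CTX sorted over D7 CTX BM, Hspa1a and Dnajb1 in D2 CTX over naive BM and Hspe1 in D7 CTX over naive BM, and the cause was not tested. Hspa1a in D2 CTX over naive BM ran from -0.05 to 1.05. Adding 1 CPM was an alternative chosen after seeing the data. The median over the 10 members in D2 CTX over naive BM, 0.98 with nothing added, was 0.70 for the mean over cells and 0.73 in a stricter gate. Scaling by the median gene moved all ratios of a comparison by at most 0.08.

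The number of genes at least 1 log2 unit apart was 195 in naive sorted over naive BM, 657 without the filter on low genes and 956 at 0.5 log2 unit. The same 3 counts were 90, 318 and 463 in CTX sorted over D7 CTX BM, 40, 93 and 178 in CTX sorted over naive sorted, 176, 1270 and 955 in D2 CTX over naive BM and 25, 277 and 210 in D7 CTX over naive BM, where the filter and fold set the count. Of the wider folding list 7, 4, 2 and 17 genes lay at least 0.5 log2 unit apart in the first 4 comparisons, against 2, 0, 1 and 4 at 1 log2 unit. The share of naive sorted cells with Hspa1a was 8.66% at 2000 UMIs, 5.49% at 1000 and 24.1% unthinned, and that of CTX sorted cells 3.82%, 2% and 11.1%. No paired analysis was possible because each group is 1 library. The gate in D2 CTX BM (197 cells) and the few UMIs of Hspa1a, Hspa1b and Hsph1 in whole BM limit those ratios.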
